A study of Mus musculus with 24 samples.

Results

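RNA from 6 of the 24 mouse tumors of the series was compared here. Of these, 3 were intratibial tumors of mice given a vector for interleukin 27 (IL-27). The other 3 were intratibial tumors of mice given a control vector, called empty vector in the sample labels. All were taken on day 14 after implantation. The tumors were taken by their library names, which give the day, the vector, the oral treatment and the mouse number. No measured value enters that rule, but the tumors and the gene lists were chosen with earlier results of these data known. The tumors grew in male C57/BL6 mice of 8 to 10 weeks from 100000 TC2Ras-Luc cells injected into each tibia. TC2Ras-Luc is a line made from the mouse prostate adenocarcinoma line TRAMP-C2 by lentiviral transfer that included activated H-Ras, with firefly luciferase added for imaging. The plasmid was delivered into a muscle of the limb with microbubbles and ultrasound (sonoporation), and mice of both groups also received the vehicle polyvinylpyrrolidone (PVP) by daily gavage for 2 weeks, without cabozantinib (cabo). The library names call the vectors pORF0 and pIL27, whereas the methods of the study name pTSTA-ctrl and pTSTA-IL27pepL for delivery in mice, so which backbone these 6 mice received could not be settled. The IL-27 vector carries a C-terminal peptide, pepL. By the account of the study, the control vector held only Lucia, a secreted luciferase used as reporter, and the IL-27 vector held Lucia as well. The control tumors are those of mice 3, 5 and 7 (M3, M5 and M7) and the IL-27 treated tumors those of mice 4, 6 and 8 (M4, M6 and M8). Values of single tumors are given below in this order.

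IL-27 is a secreted heterodimer of the p28 subunit, encoded by Il27, and EBI3. It signals through a receptor of IL-27RA and gp130, the product of Il6st, and through JAK kinases and STAT factors, and it is known to act on T cells, NK cells and macrophages. Interferon-stimulated genes carry known promoter elements. Type I interferon acts mainly through the interferon-stimulated response element (ISRE), and interferon-gamma through the gamma-activated site (GAS). In a bone tumor these pathways are read from a mixture of tumor cells, immune cells, stroma, bone and adjoining muscle.

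Each control library held between 70953595 and 75305934 counts on genes and each IL-27 library between 67682612 and 72182727. CPM values are read counts scaled to a common library size with edgeR's normalization factors. Pearson's r of log2 CPM across genes was between 0.961 and 0.972 within the control group, between 0.941 and 0.957 within the IL-27 group and between 0.943 and 0.970 across the groups. Markers of the labelled tissue were looked up. Hras was found at 22.7, 18.9 and 19.5 CPM in the control tumors and at 16.9, 18.4 and 26.6 CPM in the IL-27 treated tumors. Its level does not show how much of a section was tumor cells. The epithelial gene Epcam, given below, was far lower in every tumor. Skeletal muscle RNA stood apart in 1 library. The 22 listed muscle genes summed to 11.97, 191.5 and 38.2 CPM in the control tumors. The sum was 41.3 and 88.0 CPM in M4 and M6, and 2393 CPM in M8. Results are therefore also given without M8 where that library bears on them. Nothing in the labels assigns the 6 tumors to batches.

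The comparison of IL-27 treated with control tumors asks which genes differ with the cytokine vector alone at an early time. Of 18519 genes that passed edgeR's filter on low counts, 0 had an adjusted p under 0.05 by edgeR's quasi-likelihood test with Benjamini-Hochberg adjustment (0% of genes), and the smallest adjusted p was 0.9999. The unadjusted p was under 0.05 for 511 genes (2.76%), of which 169 were higher (0.913%) and 342 lower (1.85%) in the IL-27 treated tumors. DESeq2 called 2 genes, Adam1a and CT010467.1, at an adjusted p under 0.05, and gave 656 genes an unadjusted p under 0.05. The limit of the study for differentially expressed genes (DEGs) is given differently in its methods and beside its results. By an unadjusted p below 0.05 together with an absolute log2 fold change of 1.5 or more, the limit beside the results and the one used here, 43 genes counted as upregulated DEGs (0.232%) and 57 as downregulated DEGs (0.308%). By an absolute fold change of 1.5, the limit in the methods, the counts were 126 and 287. The word DEG is used below only for the 43 and 57 genes of the log2 limit or for that limit in other fits, and no DEG had an adjusted p under 0.05 in edgeR. The median log2 fold change of all tested genes was 0.02. Nothing shows whether each tumor came from a separate cage or litter, and the p-values measure the spread between these 6 tumors only.

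**Figure D1:**
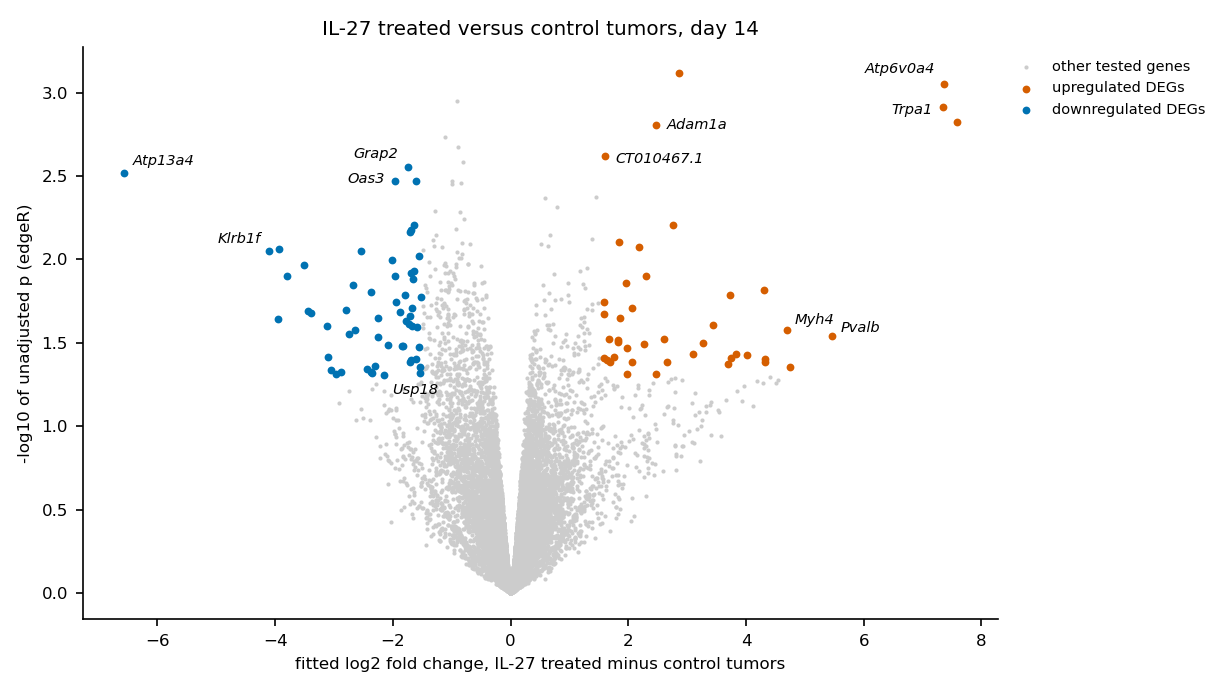
Volcano plot of the 18519 tested genes, with the fitted log2 fold change (IL-27 treated minus control tumors) on the x axis and the negative log10 of the unadjusted edgeR p on the y axis. The 43 upregulated DEGs are orange, the 57 downregulated DEGs blue, and the most extreme fold changes, as of Atp6v0a4, Trpa1 and Atp13a4, belong to genes with a whole group at 0 and depend on the prior count of the fit.

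The genes of the cytokine itself and of its receptors were not higher in the IL-27 treated tumors. Il27 RNA, below the filter on low counts, was at 0.230, 0.233 and 0.0406 CPM in the control tumors and at 0.0559, 0 and 0 CPM in the IL-27 treated tumors. The vector is expressed in the injected muscle, so RNA of the tumor does not check delivery. That holds for M8 too, since nothing shows that the muscle RNA of its section came from injected muscle. For delivery the study reports luminescence of the Lucia reporter in muscle and serum of its mice. Ebi3, the other subunit, was at 4.29, 1.36 and 1.69 CPM in the control tumors and at 0.489, 0.711 and 2.81 CPM in the IL-27 treated tumors, so that the groups overlapped (log2 fold change -0.87 ± 0.726). Il27ra was at 7.85, 6.92 and 6.34 CPM against 8.04, 3.70 and 3.67 CPM (log2 fold change -0.45 ± 0.343). M6 and M8 lay below the controls and M4 above them. The shared receptor subunit Il6st (log2 fold change -0.14 ± 0.197) and the IL-6 receptor gene Il6ra (log2 fold change -0.05 ± 0.167) completed the group. With all 6 tumors none of the 4 tested ones reached an unadjusted p of 0.05 in edgeR. Without M4, 2 genes of the group were lower with such a p (4.43% of all genes), and without M8 1 was (3.94%). The group's median was -0.30, between -0.52 without control M7 and -0.15 without control M3.

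Genes known to respond to IL-27 in lymphocytes and myeloid cells mostly had negative fold changes. Of the 15 listed, 13 had a negative fold change (46.4% of all genes), 2 with an unadjusted p under 0.05 (1.85% of all genes), and the median was -0.48. The count of 2 was 5 without M8 (3.94% of all genes) and 4 without M4 (4.43%). It was 1 without control M3 (0.760%) and 0 without control M5, control M7 or M6. Tbx21, the T-bet transcription factor of type 1 immunity, was at 1.06, 1.01 and 1.19 CPM in the control tumors and at 0.797, 0.363 and 0.418 CPM in the IL-27 treated tumors (log2 fold change -1.04 ± 0.437), without overlap. Il12rb2, the inducible chain of the IL-12 receptor, was a downregulated DEG (log2 fold change -2.44 ± 1.03). Leaving out 1 tumor gave it log2 fold changes from -3.27 to -1.89, with an unadjusted p of up to 0.161 in edgeR. In bulk RNA such as this, fewer cells of a type and less RNA per cell cannot be told apart.

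Oas3, which encodes an antiviral 2'-5' oligoadenylate synthetase and lies on chromosome 5 (GRCm38, chr5:120753098-120777661), was a leading downregulated DEG. It was at 11.3, 17.9 and 7.68 CPM in the control tumors and at 2.38, 1.80 and 5.30 CPM in the IL-27 treated tumors. All 3 IL-27 values lay below all 3 control values, and M8 was the IL-27 treated tumor nearest to the controls. The log2 fold change was -1.96 ± 0.475 (fitted value ± SE, as throughout), and -2.56 without M8. Its promoter window, from 250 bases before the start site to 49 after it, is shown because Oas3 is 1 of 8 downregulated DEGs whose window holds a match to the ISRE core. The window is chr5:120777610-120777909 of RefSeq's GRCm38.p6, on the minus strand and written 5′ to 3′ along the gene, with the match in capitals.
Oas3: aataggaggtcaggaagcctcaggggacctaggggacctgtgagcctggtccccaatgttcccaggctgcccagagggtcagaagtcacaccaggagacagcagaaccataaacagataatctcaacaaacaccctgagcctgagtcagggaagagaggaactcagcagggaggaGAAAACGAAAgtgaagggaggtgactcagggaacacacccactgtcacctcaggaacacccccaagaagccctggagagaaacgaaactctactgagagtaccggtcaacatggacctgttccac

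The motifs searched were the ISRE core, GAAANNGAAA, and the GAS, TTCNNNGAA, each on both strands. Of the 18506 distinct symbols of the tested genes, 12343 had a RefSeq window, and 3.86% of these held an ISRE core and 8.44% a GAS. Among the downregulated DEGs 35 had a window, of which 8 (22.9%) held an ISRE core and 6 (17.1%) a GAS. Among the upregulated DEGs 25 had a window, and 0 held either motif. Of the listed type I interferon genes 7 of 14 with a window held an ISRE core, of the interferon-gamma genes 10 of 12, and of the skeletal muscle genes 0 of 16. A match is a description of the letters in the window. Stretches of 30 bases around the match of the other 7 downregulated DEGs, chosen for printing after the values were seen, are given with the match in capitals, each 5′ to 3′ along its gene. Ifit3b has a second match in its window and Ifit1bl1 a second one in another window of the gene, and the stretch shown is that of the first. A match that opens with TTTC lies on the opposite strand of the gene.
9930111J21Rik1 (chr11:48979336-48979365, minus strand): cagaggtctgGAAATAGAAActaaatctta
Ifi206 (chr1:173491339-173491368, minus strand): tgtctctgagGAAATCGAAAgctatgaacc
Kcnj16 (chr11:111023620-111023649, plus strand): tttggctacaTTTCTGTTTCtattcagggt
Gbp7 (chr3:142530273-142530302, plus strand): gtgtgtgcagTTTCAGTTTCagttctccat
Ifi213 (chr1:173599326-173599355, minus strand): cgtctctgagGAAATCGAAAgctatgaacc
Ifit1bl1 (chr19:34602053-34602082, minus strand): actctgtaggTTTCATTTTCtgtaggttgg
Ifit3b (chr19:34607759-34607788, plus strand): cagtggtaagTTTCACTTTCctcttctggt

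Ifi206 and Ifi213, whose stretches are nearly alike, belong to the Ifi200 family of DNA sensors, and Ifit3b is a close copy of Ifit3. Counts of such copies are uncertain, since the counting program is not given in the sources used here and could split reads between them. Ifi206 was at 5.26, 6.25 and 2.64 CPM in the control tumors and at 1.73, 0.695 and 1.87 CPM in the IL-27 treated tumors, without overlap (log2 fold change -1.72 ± 0.473). Gbp7, a guanylate-binding protein induced by interferon-gamma, was at 30.0, 29.8 and 11.6 CPM against 7.90, 3.81 and 13.2 CPM (log2 fold change -1.52 ± 0.503). There the value of M8 lay within the control range. Ifit3b was at 11.1, 13.5 and 8.02 CPM against 1.83, 1.33 and 8.08 CPM (log2 fold change -1.54 ± 0.644), again with M8 inside the control range, and its log2 fold change was -2.78 without M8. The 5 other promoter windows of the leading DEGs (Atp6v0a4, Adam1a, Phkg1, Grap2 and Atp13a4) held neither motif.

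The type I interferon response was lower in 2 of the 3 IL-27 treated tumors. All 20 listed genes had a negative fold change, against 46.4% of all tested genes, and their median was -1.15 against 0.02 over all genes. Of them 12 had an unadjusted p under 0.05, where the background is 1.85%, 7 showed no overlap between groups (4.37% of all genes), and Usp18 and Ifi44 were DEGs. In M4 and in M6 all 20 lay below the lowest control tumor. In M8 only 7 did, 13 lay inside the control range, and M8 was the highest IL-27 treated tumor for all 20.

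Rsad2, which encodes the antiviral enzyme viperin, was at 26.4, 36.9 and 27.7 CPM in the control tumors and at 10.6, 7.57 and 19.1 CPM in the IL-27 treated tumors. The groups did not overlap, and the log2 fold change was -1.29 ± 0.336. Mx2, a dynamin-like antiviral GTPase, was at 4.03, 6.57 and 6.16 CPM against 1.64, 1.74 and 3.44 CPM, also without overlap (log2 fold change -1.30 ± 0.371). Ifi44 was at 15.1, 15.6 and 7.91 CPM against 3.06, 1.80 and 7.39 CPM (log2 fold change -1.65 ± 0.519). Its value in M8 was close to that of control M7. Usp18, the protease that removes ISG15 from proteins and restrains the type I receptor, was at 7.13, 13.5 and 6.27 CPM against 1.75, 1.01 and 6.44 CPM (log2 fold change -1.55 ± 0.662). M8 overlapped the controls here. The cytosolic RNA sensor genes Ifih1 (MDA5) and Ddx58 (RIG-I) showed smaller differences. Ifih1 was at 38.3, 43.0 and 31.0 CPM against 19.7, 14.9 and 27.9 CPM (log2 fold change -0.85 ± 0.250), and Ddx58 had a log2 fold change of -0.62 ± 0.204.

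Some well known members did not reach an unadjusted p of 0.05. Irf7, the factor that amplifies type I interferon, was at 47.3, 47.4 and 22.9 CPM in the control tumors and at 10.4, 6.59 and 32.9 CPM in the IL-27 treated tumors (log2 fold change -1.24 ± 0.577). The high value of M8 lay between those of the controls. Isg15 had a log2 fold change of -1.09 ± 0.539 and Ifit3 one of -1.38 ± 0.696. The number of the 20 genes with an unadjusted p under 0.05 depended on single tumors. It was 20 without M8, 7 without M4 and 5 without M6, where 3.94%, 4.43% and 1.23% of all genes were lower with such a p. It was 8, 14 and 5 without control M3, M7 and M5, against 0.760%, 1.96% and 0.870% of all genes. These shares also apply to the counts given below without 1 tumor. The list's median was between -1.83 (without M8) and -0.80 (without M6).

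**Figure D2:**
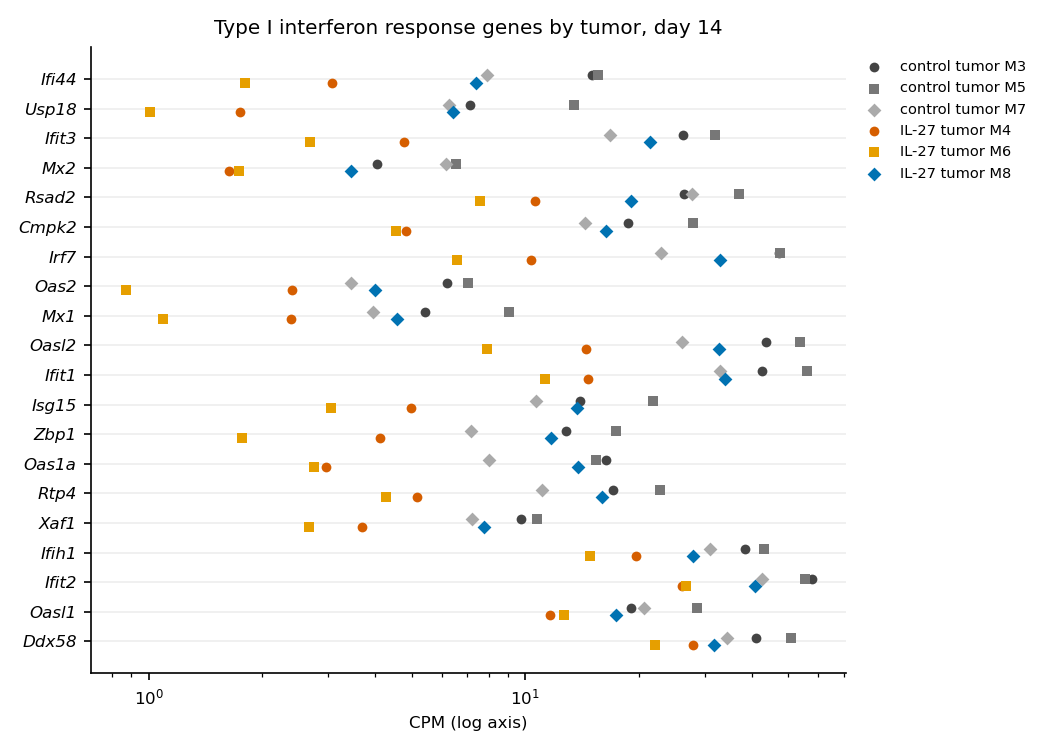
CPM of the 20 type I interferon response genes in each of the 6 tumors, on a log axis, with grey points for the control tumors and colored points for the IL-27 treated tumors. M4 and M6 lie below every control tumor for each gene, while M8 lies inside the control range for 13 of the 20 genes.

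The interferon-gamma list followed the same tumors. All 18 genes had a negative fold change, with a median of -1.17, and 4 (Gbp3, Gbp4, Gbp6 and Gbp7) had an unadjusted p under 0.05 (1.85% of all genes). Gbp4 was at 8.95, 10.8 and 5.29 CPM in the control tumors and at 3.82, 1.86 and 5.26 CPM in the IL-27 treated tumors (log2 fold change -1.19 ± 0.420). Gbp6 was at 9.24, 11.8 and 6.70 CPM against 2.88, 1.39 and 6.33 CPM (log2 fold change -1.39 ± 0.515). For both genes M8 was only just below control M7. Cxcl9 and Cxcl10, ligands of the T cell chemokine receptor CXCR3, were low in M4 and M6 alone. Cxcl9 was at 28.3, 22.5 and 7.27 CPM against 2.34, 1.97 and 24.6 CPM (log2 fold change -1.004 ± 0.957), and Cxcl10 at 43.0, 42.7 and 23.2 CPM against 7.86, 4.68 and 31.6 CPM (log2 fold change -1.30 ± 0.651). The list's median was -0.78 without M6. Without M8 it was -2.04 and 15 of the 18 genes had an unadjusted p under 0.05, against 0 without control M3 or M5 and 1 without M4.

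Antigen presentation genes of MHC class I had negative fold changes for 11 of 11 members (46.4% of all genes) with a median of -0.62, and 5 had an unadjusted p under 0.05 (1.85% of all genes). H2-K1, a classical class I heavy chain, was at 235, 177 and 204 CPM in the control tumors and at 113, 96.8 and 189 CPM in the IL-27 treated tumors (log2 fold change -0.63 ± 0.257). Tap1, a subunit of the peptide transporter, was at 27.5, 28.2 and 21.9 CPM against 12.7, 4.83 and 20.3 CPM (log2 fold change -1.03 ± 0.444). Nlrc5, the transactivator of class I genes, was at 13.8, 15.0 and 10.3 CPM against 8.31, 2.40 and 5.66 CPM (log2 fold change -1.26 ± 0.417). It showed no overlap between groups, and unlike H2-K1 it was low in M8 as well. Tap2 (log2 fold change -0.73 ± 0.314) and Erap1 (log2 fold change -0.50 ± 0.189) were the other members with an unadjusted p under 0.05. The median was -0.97 without M8, and the count of 5 was 10 without M8 and between 1 and 2 without any other tumor. Of the 10 MHC class II genes, all with negative fold changes (median -0.30), none had an unadjusted p under 0.05 in edgeR, and 6 had one without M8. Their median depended on single tumors, at -1.43 without M8, 0.13 without control M3 and 0.087 without M6. Cd74, the invariant chain, was at 112, 50.4 and 60.0 CPM against 30.7, 21.3 and 129 CPM, where M8 was above every control tumor.

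T cell genes were also lower, in M6 as the interferon genes were, but with M8 low and M4 nearer to the controls. The 15 genes of the T cell receptor complex and its costimulation all had negative fold changes, with a median of -1.06. All 15 lay below the control range in M6 and in M8, whereas in M4 5 lay below it, 6 inside it and 4 above it. Cd3e, a signaling chain of the T cell receptor complex, was at 10.6, 10.8 and 9.91 CPM in the control tumors and at 9.08, 1.18 and 1.73 CPM in the IL-27 treated tumors (log2 fold change -1.38 ± 0.690). The value of M4 was near the controls and those of M6 and M8 were far below. Icos, a costimulatory receptor, was at 5.52, 5.64 and 6.26 CPM against 4.73, 1.03 and 1.61 CPM (log2 fold change -1.24 ± 0.524), and Themis, a regulator of T cell receptor signaling, had a log2 fold change of -1.17 ± 0.496. These were the 2 members with an unadjusted p under 0.05. Without M4 all 15 members had one and the median was -2.30, where the share of all genes that were lower with such a p rose from 1.85% to 4.43%, and leaving out any other tumor gave 0 members in edgeR.

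Regulatory T cell and checkpoint genes showed the same split. All 10 had negative fold changes, with a median of -0.79, and none had an unadjusted p under 0.05 in edgeR with all 6 tumors, against 8 of 10 without M4. The median was -1.82 without M4 and -0.51 without M6. Foxp3, the defining factor of regulatory T cells, was at 3.96, 3.79 and 4.16 CPM in the control tumors and at 4.601, 0.853 and 1.11 CPM in the IL-27 treated tumors (log2 fold change -0.86 ± 0.603). Pdcd1, which encodes PD-1, was at 8.02, 8.15 and 8.56 CPM against 8.82, 1.74 and 2.13 CPM (log2 fold change -0.96 ± 0.579). M4 exceeded all 3 controls for both genes. Among CD8 and cytotoxic genes, 10 of 10 had negative fold changes (median -0.86, -0.38 without M6 and -1.55 without M4), and Ctsw, a cathepsin of cytotoxic lymphocytes, was at 2.16, 2.78 and 2.41 CPM against 1.22, 0.363 and 1.08 CPM (log2 fold change -1.46 ± 0.467). Ctsw was lower in all 3 IL-27 treated tumors, and 5 genes of the list had an unadjusted p under 0.05 without M4.

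NK cell genes had negative fold changes for 14 of 15 members (median -0.64), 2 with an unadjusted p under 0.05 (1.85% of all genes). Without M8 7 had one (3.94% of all genes) and the median was -1.13. Il2rb, the beta chain of the IL-2 and IL-15 receptors, was at 22.8, 20.7 and 22.2 CPM in the control tumors and at 16.01, 4.16 and 7.50 CPM in the IL-27 treated tumors (log2 fold change -1.25 ± 0.431). The inhibitory lectin-like receptor chain Klre1 was a DEG at 0.839, 0.453 and 0.650 CPM against 0.266, 0.190 and 0.144 CPM (log2 fold change -1.69 ± 0.520). A further lectin-like receptor, Klrb1f, was at 0.568, 0.207 and 0.311 CPM against 0, 0 and 0.0576 CPM (log2 fold change -4.10 ± 1.19). Neither receptor gene overlapped between the groups, and both were under 1 CPM in every tumor. Klrb1f was near the limit of detection in the IL-27 treated tumors, at 0, 0 and 4 counts, while Klre1 was at 19, 12 and 10 counts there.

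B cell genes had negative fold changes for 12 of 12 members (46.4% of all genes), with a median of -1.30 (-0.86 without M6). Of them 5 showed no overlap between groups (4.37% of all genes) and 3 had an unadjusted p under 0.05 (1.85% of all genes), a count that was 1 without control M5 or M6. Ms4a1, which encodes CD20, was at 0.189, 0.866 and 0.352 CPM in the control tumors and at 0.168, 0.0632 and 0.0576 CPM in the IL-27 treated tumors (log2 fold change -2.26 ± 0.799). Pax5, the factor that fixes B cell identity, was at 0.663, 1.66 and 0.853 CPM against 0.475, 0.0632 and 0.331 CPM (log2 fold change -1.85 ± 0.720), and Ebf1 at 9.89, 8.94 and 6.97 CPM against 4.73, 5.18 and 6.59 CPM (log2 fold change -0.64 ± 0.237). In all 3 genes the IL-27 treated tumors lay below the controls. Of the plasma cell genes 6 of 8 were lower (median -0.997), among them the DEG Derl3, a factor of protein export from the endoplasmic reticulum (log2 fold change -1.71 ± 0.601). Without M4 the plasma cell median was -2.08 and 5 of 8 had an unadjusted p under 0.05, and without M8 it was -0.61. Mast cell genes were lower for 6 of 6 tested members (median -1.05), none with an unadjusted p under 0.05 in edgeR. Without M8 the median was -2.43 and 3 had one, and without control M3 the median was -0.67. Cpa3, the mast cell carboxypeptidase, was at 2.38, 0.504 and 0.420 CPM against 0.0699, 0.0948 and 0.633 CPM, so that control M3 and IL-27 M8 were the highest of their groups.

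**Figure D3:**
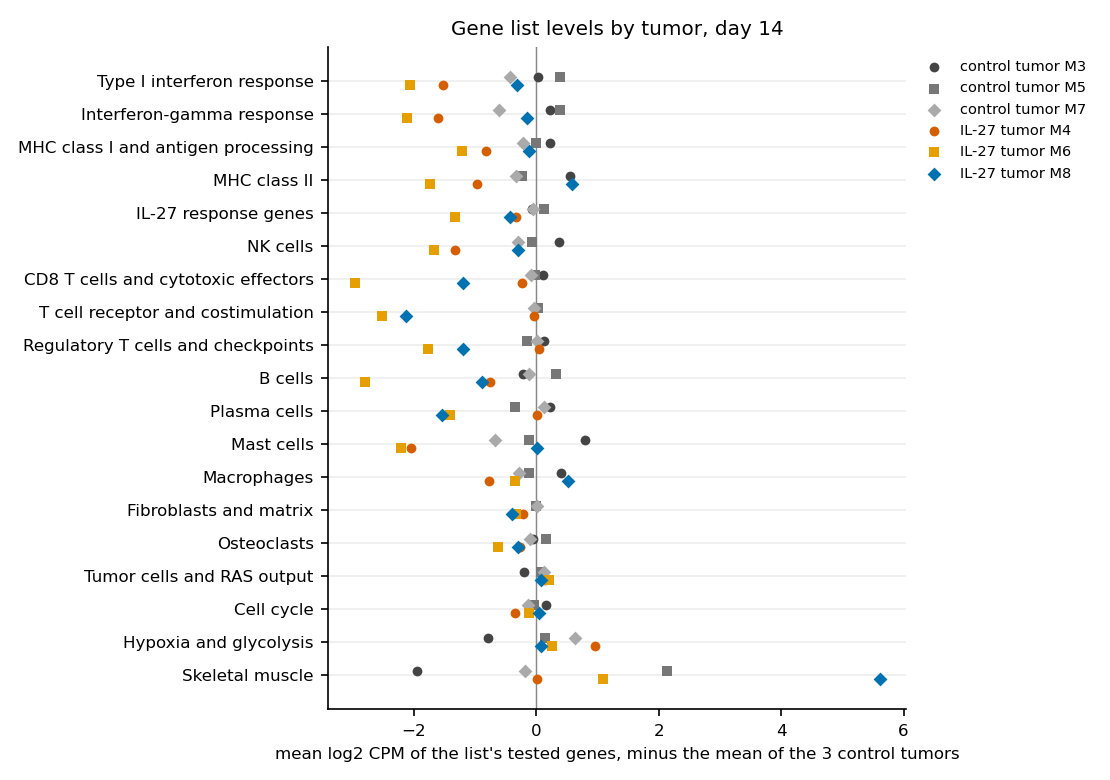
Mean log2 CPM of the tested genes of 19 lists in each tumor, given as the difference from the mean of the 3 control tumors. The interferon and MHC class I lists are low in M4 and M6 with M8 near the controls, the T cell and regulatory T cell lists are low in M6 and M8 with M4 near the controls, and the skeletal muscle list is highest in M8.

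Myeloid lists held no gene with an unadjusted p under 0.05 in edgeR. Of the 15 macrophage genes 11 were lower (median -0.32, between -0.81 without M8 and -0.092 without control M3). The median of the 9 tested dendritic cell genes was -0.14 (between -0.47 without control M7 and 0.22 without control M3). That of the 11 neutrophil and marrow granule genes was -0.33 (between -0.44 without M6 and 0.039 without control M5). Without M8 5 macrophage genes and 1 neutrophil gene were lower with an unadjusted p under 0.05. Without M4 3 neutrophil genes and 1 dendritic cell gene were. All 7 tested erythroid genes were lower (median -0.66, without control M7 0.17). Hbb-bs, a beta globin gene, was at 18.6, 25.9 and 102 CPM in the control tumors and at 26.4, 31.0 and 24.001 CPM in the IL-27 treated tumors. Control M7 was far above the other 5 tumors. Among 14 tested chemokines, 11 were lower (median -0.51, but -0.28 without M6 and -0.29 without control M3) and 2 had an unadjusted p under 0.05 (1.85% of all genes), against 6 without M8. Cxcl5, a neutrophil attractant, was a DEG at 1.58, 0.750 and 2.30 CPM against 0.0559, 0.284 and 0.547 CPM (log2 fold change -2.38 ± 0.774). Cxcl12, the marrow niche ligand of CXCR4, was at 82.7, 54.6 and 58.5 CPM against 40.2, 47.8 and 51.4 CPM (log2 fold change -0.49 ± 0.194). In both, each IL-27 treated tumor lay below each control tumor. Of the 13 inflammasome and IL-1 family genes 9 were lower (median -0.22, between -0.36 without control M7 and -0.037 without control M3), and the decoy receptor gene Il1r2 had an unadjusted p under 0.05 (log2 fold change -0.85 ± 0.322). No gene of that list had one in edgeR without M3, M5, M7 or M4.

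Matrix genes were low in each of the IL-27 treated tumors, where 8 (M4), 10 (M6) and 12 (M8) of 14 lay below the control range. Of the 14 fibroblast and matrix genes 11 had negative fold changes (median -0.33), 8 had no overlap between groups (4.37% of all genes) and 5 had an unadjusted p under 0.05 (1.85% of all genes). Postn, periostin, was at 1599, 1228 and 1575 CPM in the control tumors and at 688, 876 and 959 CPM in the IL-27 treated tumors (log2 fold change -0.80 ± 0.185). Col1a2 was at 1516, 1478 and 1184 CPM against 1016, 992 and 926 CPM (log2 fold change -0.51 ± 0.154), and Col1a1 at 1850, 2435 and 1906 CPM against 1660, 1565 and 1291 CPM (log2 fold change -0.45 ± 0.177). Both chains of type I collagen thus had their lowest value in M8. Col5a1 (log2 fold change -0.46 ± 0.186) and Thy1 (log2 fold change -0.71 ± 0.248) were the other members with an unadjusted p under 0.05. Leaving out 1 tumor gave between 2 such genes (without M6) and 8 (without M4).

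Bone cell lists showed small differences. Of the 16 osteoclast genes 15 were lower (median -0.30). Dcstamp, which is needed for the fusion of osteoclast precursors, was at 1.61, 3.28 and 2.06 CPM in the control tumors and at 1.34, 0.916 and 1.14 CPM in the IL-27 treated tumors (log2 fold change -1.03 ± 0.373), without overlap. For the 7 tested osteoblast and osteocyte genes the median was 0.06 (between -0.091 without M8 and 0.13 without control M5), with Col1a1, described above, as the member with an unadjusted p under 0.05, and for the 7 cartilage genes the median was 0.43 (-0.087 without M8). Of the 18 endothelial genes 14 were lower (median -0.19, between -0.35 without control M7 and -0.10 without M4), and Flt4, the receptor VEGFR-3 of lymphatic endothelium, was at 17.1, 26.4 and 15.7 CPM against 13.5, 12.6 and 11.9 CPM (log2 fold change -0.64 ± 0.229). The medians of pericyte (-0.06), adipocyte (0.55), nerve (0.11) and epidermis (0.33) genes came with 0 members at an unadjusted p under 0.05 in edgeR. Leaving out 1 tumor gave medians from -0.24 (without M4) to 0.22 (without control M5) for pericyte genes, from 0.13 (without M8) to 1.17 (without control M3) for adipocyte genes, from -0.052 (without control M3) to 0.20 (without control M7) for nerve genes, and from 0.22 (without control M3) to 0.79 (without control M7) for epidermis genes.

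Tumor cell and proliferation lists held no gene with an unadjusted p under 0.05 in edgeR. Of 16 tumor cell and RAS output genes 13 were higher with a median of 0.10, and the 15 cell cycle genes had a median of -0.14 (between -0.26 without M8 and -0.038 without M4). Epcam, an epithelial adhesion gene, was at 1.62, 2.61 and 3.94 CPM in the control tumors and at 3.61, 2.99 and 3.94 CPM in the IL-27 treated tumors. The immediate early and heat shock genes had a median of -0.04 (between -0.50 without M6 and 0.64 without control M7). All 12 hypoxia and glycolysis genes had positive fold changes (median 0.34), but none had an unadjusted p under 0.05 in edgeR, and the median was 0.041 without M4, 0.0999 without control M3 and 0.79 without control M7. Vegfa, the main endothelial growth factor, was at 71.4, 256 and 236 CPM against 523, 225 and 161 CPM, with M4 the highest tumor and control M3 the lowest.

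Skeletal muscle genes were high in 1 IL-27 treated tumor. All 21 tested muscle genes had positive fold changes (median 3.24, where 53.6% of all genes were higher), 3 of them with an unadjusted p under 0.05 (0.913% of all genes), each was above the control range in M8, and 0 of 21 showed no overlap between groups. Myh4, the myosin heavy chain of fast glycolytic fibers, was at 0.595, 6.88 and 4.98 CPM in the control tumors and at 2.71, 9.73 and 309 CPM in the IL-27 treated tumors (log2 fold change 4.69 ± 1.72). Without M8 its log2 fold change was 0.58. Tnni2, fast troponin I, was at 0.622, 3.50 and 0.853 CPM against 0.769, 2.51 and 61.0 CPM (log2 fold change 3.69 ± 1.52, without M8 -0.020), and Pvalb, the calcium buffer parvalbumin, reached 52.7 CPM in M8 and at most 0.785 CPM elsewhere (log2 fold change 5.46 ± 2.04). The list's median was -0.38 without M8 and 5.15 without control M5. Of the 43 upregulated DEGs, 13 had more than 4 times the value of every other tumor in M8. Chrna1, the acetylcholine receptor subunit of muscle, was separate from this pattern at 14.9, 28.3 and 20.6 CPM against 34.2, 31.5 and 34.6 CPM (log2 fold change 0.65 ± 0.236). It was above all controls in each IL-27 treated tumor, while its list, muscle regeneration, had a median of 1.37 with M8 and -0.92 without. Whether adjoining muscle in the section of M8 had a part in the values of the other lists in that tumor was not tested. With the muscle level of each tumor as a covariate, the DEG rule gave 157 downregulated genes.

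**Figure D4:**
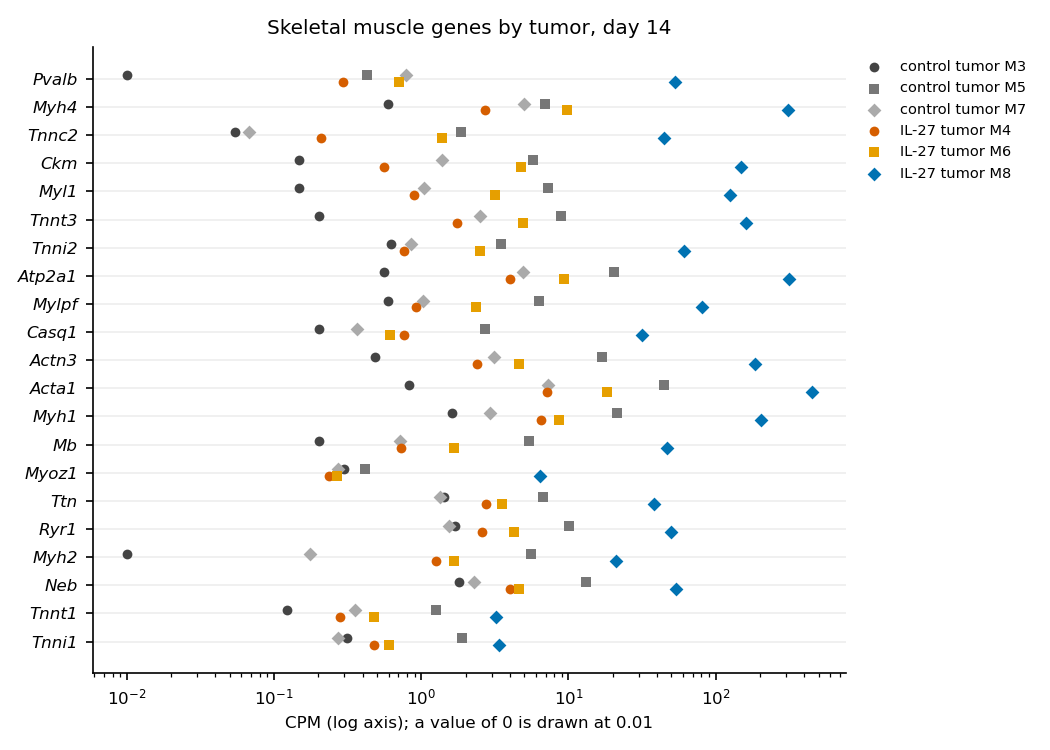
CPM of the 21 skeletal muscle genes in each of the 6 tumors on a log axis, where a value of 0 is drawn at 0.01. M8 lies above every other tumor for each gene, and M4 and M6 lie mostly within the range of the control tumors.

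Of the 43 upregulated DEGs, 27 were protein coding, 23 showed no overlap between groups (3.44% of all tested genes were higher without overlap), and 20 had a mean under 1 CPM in both groups. Of the 43, 17 still met the rule without control M3, 21 without M5 and 16 without M7, and 34 did without IL-27 M4, 30 without M6 and 18 without M8. By DESeq2 29 of the 43 met it. DESeq2 gave no p for several muscle genes among the others, such as Myh4, Pvalb and Tnni2. Atp6v0a4, a subunit of the vacuolar proton pump (chr6:38048483-38124586), was at 0, 0 and 0 CPM in the control tumors and at 0.238, 0.332 and 0.288 CPM in the IL-27 treated tumors, at least 7.15-fold higher when the controls are set to the floor of 3 counts per library. Trpa1, an ion channel of sensory neurons, was at 0, 0 and 0 CPM against 0.392, 0.284 and 0.173 CPM, at least 7.07-fold higher. Both were detected in each IL-27 treated tumor and in no control tumor, at levels near the floor. Duox2, a dual oxidase that makes hydrogen peroxide, was at 0, 0 and 0.108 CPM against 0.280, 0.474 and 0.461 CPM (log2 fold change 3.43 ± 1.24), and Phkg1, a catalytic subunit of muscle phosphorylase kinase, at 0.392, 0.349 and 0.311 CPM against 0.587, 0.837 and 2.69 CPM (log2 fold change 1.96 ± 0.623), which did not meet the rule without M8. The other upregulated DEGs that the naming rule took were Pkhd1l1 (log2 fold change 1.83 ± 0.519), Sh2d6 (1.58 ± 0.531), Ankef1 (1.86 ± 0.657) and Atp10b, a lipid flippase (3.27 ± 1.26).

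Adam1a and CT010467.1 were the genes that DESeq2 called. Adam1a, a disintegrin and metalloprotease known from testis (chr5:121518576-121545482), was at 2.27, 1.82 and 2.46 CPM in the control tumors and at 17.7, 14.9 and 3.82 CPM in the IL-27 treated tumors. M4 and M6 were far above the controls and M8 slightly above them. The log2 fold change was 2.47 ± 0.523, with 0.00656 as its adjusted p in DESeq2. Its locus overlaps Mapkapk5 and Gm42878 on the same strand and Tmem116 on the opposite strand, and the counting program and its strand setting are not known, so its count is uncertain. CT010467.1, annotated as ribosomal RNA (chr17:39846353-39848827), was at 1974, 871 and 1224 CPM against 2524, 4636 and 5182 CPM, without overlap (log2 fold change 1.60 ± 0.365, adjusted p of DESeq2 0.0331). It was high in M6 and M8 although the libraries were poly(A)-selected, and its part in other results was not tested.

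Of the 57 downregulated DEGs, 44 were protein coding, 50 showed no overlap between groups (4.37% of all tested genes were lower without overlap), and 35 had a mean under 1 CPM in both groups. Of the 57, 31 still met the rule without control M3, 23 without M5 and 32 without M7, and 38 did without IL-27 M4, 23 without M6 and 38 without M8. By DESeq2 53 of the 57 met it. M6 was the highest of the IL-27 treated tumors for 3 of them, M4 for 25 and M8 for 28, and for Atp13a4 all 3 were at 0. Grap2, the T cell adaptor GADS, was at 3.15, 2.34 and 1.33 CPM in the control tumors and at 0.797, 0.616 and 0.619 CPM in the IL-27 treated tumors (log2 fold change -1.74 ± 0.407). Atp13a4, a P-type ATPase, was at 0.135, 0.207 and 0.149 CPM against 0, 0 and 0 CPM, at least 3.71-fold lower by the same floor. Cd300e, a receptor of monocytes, was at 1.08, 0.750 and 0.190 CPM against 0.112, 0 and 0.0576 CPM (log2 fold change -3.51 ± 1.06). In none of these did the groups overlap. Lrp2, the endocytic receptor megalin, was at 1.46, 1.24 and 1.16 CPM against 0.531, 0.316 and 0.418 CPM (log2 fold change -1.61 ± 0.389), and Mlc1, a membrane protein of astrocytes, at 1.14, 1.07 and 1.34 CPM against 0.322, 0.253 and 0.562 CPM (log2 fold change -1.64 ± 0.443). The rule also took the potassium channel gene Kcnj16 (log2 fold change -3.94 ± 1.14), the mitochondrial fission gene Gdap1 (-2.54 ± 0.737) and the membrane protease gene Tmprss13 (-2.02 ± 0.599).

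The same IL-27 comparison was available in other mice at 2 points, on day 14 in tumors of mice given cabo, a multikinase inhibitor, in place of vehicle (3 against 3), and at the end of the study (EOS) in vehicle mice (2 against 2). Neither shares a tumor with the main comparison. Both gave 0 genes at an adjusted p under 0.05 by edgeR's test with Benjamini-Hochberg adjustment, with 359 of 18662 and 638 of 18830 genes at an unadjusted p under 0.05 (1.92% and 3.39%), while DESeq2 called 5 and 35. With cabo, 32 of 35 tested upregulated DEGs were again higher (51.5% of all genes were higher) and 11 had an unadjusted p under 0.05 (1.63% of all genes in that direction), and 21 of 45 downregulated DEGs were again lower (48.5% of all genes). At EOS 20 of 37 upregulated DEGs were again higher (48.7% of all genes) and 23 of 46 downregulated DEGs again lower (51.3% of all genes). The first of these 4 counts was carried in part by muscle genes. The 13 upregulated DEGs with more than 4 times the value of every other tumor in M8 were all higher with cabo, and gave 8 of the 11 genes with an unadjusted p under 0.05 (Ankrd2, Fbxo40, Lmod2, Mylk2, Pvalb, Sgca, Tmod4 and Tnni2). Of the other 30 upregulated DEGs 22 were tested with cabo. Of these 19 were higher, and Adam1a, Gm20634 and Gm36899 had an unadjusted p under 0.05. Atp6v0a4 and Trpa1 were among those not tested there, and neither was detected more with IL-27. Atp6v0a4 was at 0, 0 and 0.110 CPM with IL-27 and cabo, against 0.180, 0 and 0.253 CPM with the control vector and cabo. Trpa1 was at 0, 0.0913 and 0 CPM against 0.208, 0 and 0.0703 CPM. The muscle list was higher with cabo too, for 21 of 22 genes with a median of 1.13, and for 13 of 18 genes at EOS with a median of 0.29.

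With cabo the type I list had 14 of 20 genes higher (median 0.09), the interferon-gamma list 15 of 18 lower (median -0.29) and the MHC class I list 8 of 11 higher (median 0.16), with 0 genes of these lists at an unadjusted p under 0.05 in edgeR. Oas3 was at 15.3, 33.9 and 14.3 CPM in the control vector tumors with cabo (M21, M25 and M27) and at 9.60, 32.9 and 17.6 CPM in the IL-27 tumors with cabo (M20, M22 and M24), so that the groups overlapped (log2 fold change -0.08). At EOS 18 of 20 type I genes were lower (median -0.65, 2 with an unadjusted p under 0.05, against 1.34% of all genes) and 16 of 16 interferon-gamma genes (median -0.61). Oas3 was at 2.08 and 4.74 CPM in the EOS control tumors (M13 and M9) and at 1.41 and 2.24 CPM in the EOS IL-27 treated tumors (M10 and M12). The groups overlapped here as well (log2 fold change -0.90).

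Other lists are given side by side, without a test of the lists. The T cell list had 13 of 15 genes lower with cabo (median -0.41), and a median of -0.13 at EOS. B cell genes were lower on day 14 with vehicle (median -1.30) but higher for 10 of 12 genes at EOS (median 1.41, 5 with an unadjusted p under 0.05, against 2.04% of all genes). Ms4a1 had a log2 fold change of 2.26 ± 0.615 at EOS, with an unadjusted p under 0.05. Postn was lower at EOS too (log2 fold change -1.01 ± 0.391), and Chrna1 higher (log2 fold change 0.78 ± 0.160). With cabo the log2 fold change was -0.14 ± 0.948 for Ms4a1, -0.12 ± 0.389 for Postn and -0.093 ± 0.286 for Chrna1, none with an unadjusted p under 0.05 in edgeR. Adam1a was at 3.31, 3.13 and 20.8 CPM with IL-27 and cabo and between 1.32 and 2.35 CPM with the control vector and cabo (log2 fold change 2.25 ± 0.821). At EOS its highest value was that of a control tumor, M13, at 26.5 CPM, against 1.81 CPM in M9 and 2.44 and 3.04 CPM in the IL-27 treated tumors. Values above 14 CPM, a limit chosen after the values were seen, thus occurred in 4 of these 16 tumors, 3 of them with the IL-27 vector.

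**Figure D5:**
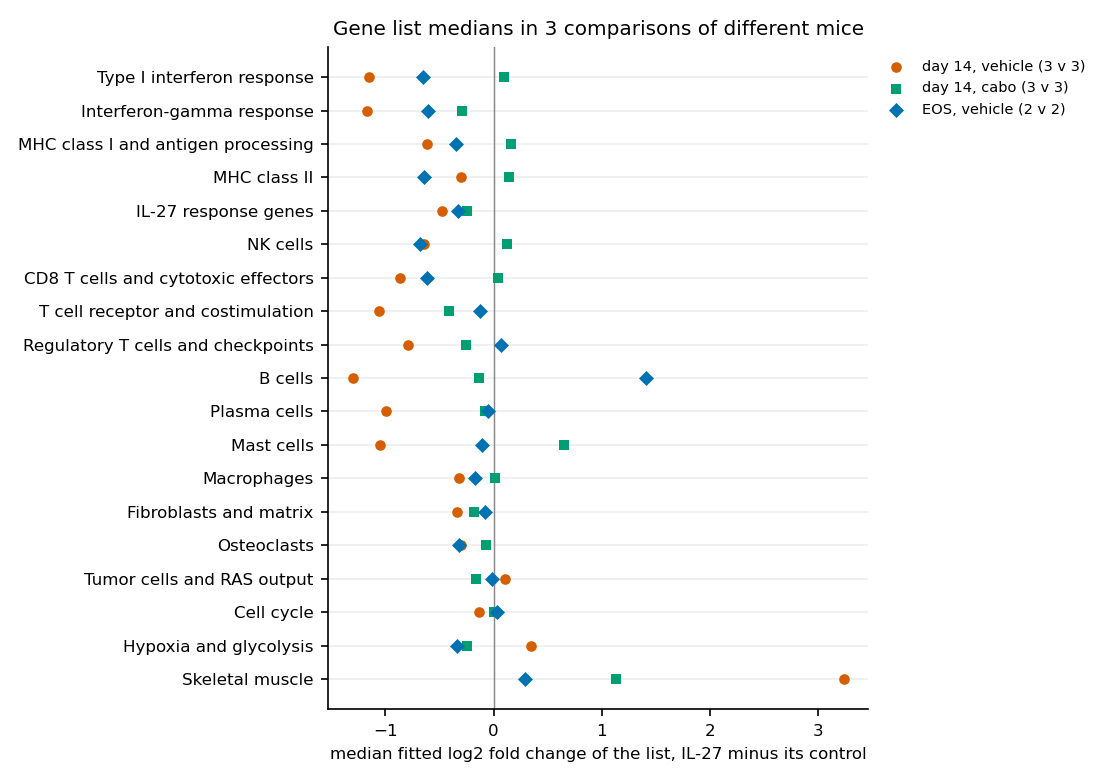
Median fitted log2 fold change (IL-27 minus its own control) of 19 gene lists in 3 comparisons of different mice, day 14 with vehicle, day 14 with cabo and EOS with vehicle. The type I interferon list has medians of -1.15, 0.09 and -0.65, the B cell list -1.30, -0.14 and 1.41, and the skeletal muscle list 3.24, 1.13 and 0.29.

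Whether the IL-27 difference itself differed was tested by interaction terms, which reuse the 6 tumors. The difference with cabo against that with vehicle gave 0 of 19899 genes at an adjusted p under 0.05 by edgeR's test with Benjamini-Hochberg adjustment, 375 (1.88%) at an unadjusted p under 0.05 and 4 by DESeq2. The 5 genes with the smallest p were Gm13304, Fam124b, Zfp759, Fndc9 and 5430421F17Rik, with adjusted p between 0.871 and 0.952 in edgeR. The difference at EOS against that on day 14 gave 0 of 20401 genes in edgeR, 509 (2.49%) at an unadjusted p under 0.05 and 3 by DESeq2. Its first genes were Gm49510 (adjusted p = 0.143 in edgeR), Gm36899, Mfsd4a, Saa3 and Ddc. The lincRNA gene Gm36899 was also the upregulated DEG with the smallest p on day 14, at 0.0947, 0.142 and 0.0677 CPM in the control tumors and at 0.867, 0.806 and 0.576 CPM in the IL-27 treated tumors (log2 fold change 2.86 ± 0.539), whereas at EOS it was at 0.889 and 0.781 CPM in the control tumors and at 0.471 and 0.405 CPM in the IL-27 treated tumors. In edgeR no gene thus differed between these comparisons at an adjusted p under 0.05 with all tumors, against 1 in that of EOS without M12. Of the interferon and MHC class I lists, 6 of 20 type I genes had an unadjusted p under 0.05 for the difference with cabo against that with vehicle, and 0 of 18 interferon-gamma and 0 of 11 MHC class I genes in edgeR. For the difference at EOS against that on day 14 these counts were 1 of 20, 0 of 18 and 1 of 11, and 7 of 13 B cell genes had an unadjusted p under 0.05.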

How the data were processed

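Libraries were made by the TruSeq stranded mRNA protocol (poly(A) selection) from RNA of tumor sections with an RNA integrity number of at least 8. Reads were sequenced in pairs, trimmed with cutadapt and mapped with HISAT2 by the authors, who deposited raw counts (whole numbers) for each Ensembl gene. FastQC, HISAT2, StringTie and DESeq2 are named in the submitters' processing notes, without versions. These notes give the human build GRCh38, although the identifiers are of mouse genes, and the counting program, strand setting and annotation are not given in the sources used here. Between 31.3% and 34.9% of the values from 1 to 20 in the 6 libraries were multiples of 4, a pattern of unknown source, so the precision of low counts is uncertain. Of 55401 gene identifiers, 55141 matched GENCODE M21 (GRCm38), the source of names and coordinates.

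The groups were compared by edgeR 4.0.16 in R 4.3.3 (filterByExpr, TMM, quasi-likelihood F test, two-sided, Benjamini-Hochberg adjustment over all tested genes), with only the groups compared in a fit. The SE of a log2 fold change is its size divided by the square root of F. DESeq2 1.42.0 was an alternative, and the others were RLE, no filter, counts divided by 4, a muscle score covariate, correction for GC content and length, all day 14 groups in one fit, other DEG limits and leaving out each tumor. Pseudocounts were not used for tests. The 34 gene lists (446 distinct genes, 398 tested) were described by counts and medians. The tumors compared and the lists were chosen with earlier results of these data known. Named genes were the IL-27 subunits and receptors, up to 12 DEGs per direction of smallest p without overlap between groups and with a regular symbol (10 and 12 qualified), list members with an unadjusted p under 0.05 or else of high CPM, and 5 genes of each interaction test. Some genes that this rule or the lists took are not reported here. Of the 6 promoter windows selected by p, 1 was printed. The tests were checked on simulated counts. An exact permutation test of 3 against 3 cannot give p below 0.1 and was not used. The other 8 tumors of the series, 4 of them subcutaneous, were not analysed here.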

Additional observations from a re-analysis of the deposited data

How the results depend on the processing

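The 511 genes at an unadjusted p under 0.05 left 0 at an adjusted p under 0.05 in edgeR under every alternative tried for day 14, and 2 in DESeq2. The counts of up- and downregulated DEGs, 43 and 57, were 136 and 139 with no filter, 21 and 23 with counts divided by 4, 126 and 287 at an absolute fold change of 1.5, and 82 and 172 at an absolute log2 fold change of 1. Upregulated DEGs were 120 with all day 14 groups in one fit, and downregulated DEGs 157 with the muscle score covariate. Leaving out 1 tumor gave 66 to 129 upregulated DEGs (66 without M8, 74 without M3, 93 without M6, 98 without M7, 113 without M4 and 129 without M5) and 43 to 306 downregulated ones (306 without M4, 296 without M8). The 12 type I interferon genes became 5 to 20, a range whose alternatives, like those of the comparison with cabo and of EOS alone, were chosen after seeing the data.

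The interaction with cabo gave 4 genes in DESeq2, and its 259 DEGs were 706 with no filter, 133 with counts divided by 4, 430 with the muscle covariate and 232 to 960 without 1 tumor (916 without M22, 960 without M24, 444 without M4, 592 without M8). That of EOS with day 14 gave 3 in DESeq2 and 0 to 1 without 1 tumor (1 without M12), and its 283 DEGs were 488 with no filter, 154 with counts divided by 4 and 243 to 496 without 1 tumor (474 without M4, 496 without M13). The comparison with cabo gave 5 genes in DESeq2, and its 193 DEGs were 470 in DESeq2 and 90 to 1087 without 1 tumor (1087 without M22, 943 without M24, 90 without M27). That at EOS gave 35 genes in DESeq2 and 0 to 21 without 1 tumor (21 without M13), and its 136 DEGs were 274 to 598 (598 without M13). There the lone tumor left in a group is assumed to vary like the other group.

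The log2 fold changes of Pvalb (-0.063) and Tnni2 (-0.089) turned negative with the muscle covariate. That covariate is the mean log2 CPM of the muscle list, which holds both genes, so the fit is no separate test of them. Leaving out 1 tumor, that of Tnni2 ranged from -0.020 (without M8) to 4.86, that of Hba-a2 from -0.80 to 0.61 (without M7) and that of Hspa1a from -1.28 to 1.90 (without M7). The cause of these changes without 1 tumor was not tested. Of the values of named genes with an unadjusted p under 0.05, 1054 kept direction and side of 0.05 under an alternative and 477 lost it in the same direction. No paired analysis was possible because the control mice (3, 5 and 7) and the IL-27 mice (4, 6 and 8) share no number.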
